A study of Homo sapiens with 6 samples.

Results

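Ribosome biogenesis and nucleolar genes were compared between 92.1 cells given the kinase inhibitor VS-4718 for 2 h and cells given vehicle. The 92.1 line is an established cell line from a human uveal melanoma, a tumour of the pigment cells of the eye. The set was given as 58 gene symbols and its members were the rows of the deposited expression table with those symbols. Of the 58, 51 had a row among the 12306 of the table, and 48 of these were high enough to be tested among 9229 tested rows. The rule itself uses names and no measured value, but the names were listed with earlier results of these data known. NOLC1, FBL, RRP1, UTP3, NIP7, POLR1C and IMP4 had no matching row and were not analysed here. NHP2, HEATR1 and RRS1 had a row but fell below the level filter.

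The vehicle group held 3 libraries of 92.1 cells given DMSO, and the treated group held 3 libraries of 92.1 cells given 1 µM VS-4718, both collected at 2 h. VS-4718 blocks focal adhesion kinase (FAK), a cytoplasmic tyrosine kinase that relays signals from integrins and G proteins. Both groups are the same line in the same serum-containing medium, so they model that line and no other tumour. The samples of a group are described as independent. Whether each was a culture of its own is not said, so the p-values cover the spread of these 6 samples alone, and part of that spread may be technical.

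Ribosomes are built in the nucleolus. RNA polymerase I copies the ribosomal DNA into a long precursor, small nucleolar ribonucleoproteins (snoRNPs) modify and help to cut that precursor, and a relay of processing factors folds it into the small and large subunits. The pathway is a main consumer of energy in growing cells and is known to follow growth signals through MYC, ERK and mTOR. The members are described below in that order of roles: snoRNP proteins, RNA polymerase I and its initiation factors, and processing factors of each subunit.

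Values are on a log2 scale of a measure resembling TPM, that is, abundance per transcript length within a fixed total, and differences are VS-4718 minus vehicle. Depth is unknown, because such a measure does not carry the number of reads. In linear units the table summed to between 836527 and 840714 per library. The melanocyte markers PMEL, TYRP1 and SOX10 were high in every library, while MLANA and TYR were nearly missing. Markers of other cell types were mostly without a row or low: the 5 of 7 fibroblast genes, the single immune and the single epithelial gene with a row were all below the filter, and of 5 endothelial genes PECAM1 alone was tested (mean 2.46). Of the row names, 2690 matched no current or older human symbol, and some have the form of mouse gene names, although the line is human. A value therefore describes a row, and copies of a gene may share its reads.

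Most members had slightly lower values with VS-4718, and none passed the test across all genes. In limma, a linear model across all rows, 0 of the 48 tested members had an adjusted p under 0.05, against 12 of 9229 rows (0.13%), 8 lower (0.0867%) and 4 higher (0.0433%). The smallest adjusted p among them was 0.25, for NOP56. A lower mean was seen in 44 of 48 members (91.7%), against 58.2% of all tested rows. The median log2 difference over the members was -0.11, so that the median member stood at 93.0% of its vehicle level; over all tested rows the median was -0.03. At an unadjusted limma p under 0.05, 11 members were lower (22.9%) and 0 higher, against 6.74% and 3.02% of all rows. In 16 members (33.3%) all 3 treated values lay below all 3 vehicle values, against 11.2% of all rows, and in 0 they lay above, against 5.15%.

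These counts depend in part on how the libraries are scaled and on single libraries. With each library centred on its median, the share of all rows with a lower mean went from 58.2% to 49.3%, and 40 of 48 members were lower, with 9 at an unadjusted p under 0.05 against 4.84% of rows. The count of 11 went to 7 without VS-4718 replicate 2 and to 7 without vehicle replicate 1, where 5.14% and 5.40% of rows were lower at that p. The median member was lower than vehicle in each of the treated libraries, by a log2 difference of -0.13 in replicates 1 and 2 and of -0.09 in replicate 3. The same medians over all rows were -0.03, -0.06 and -0.01, with replicate 2 the lowest. Whether that general shift has a part in the members' values was not tested.

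**Figure D1:**
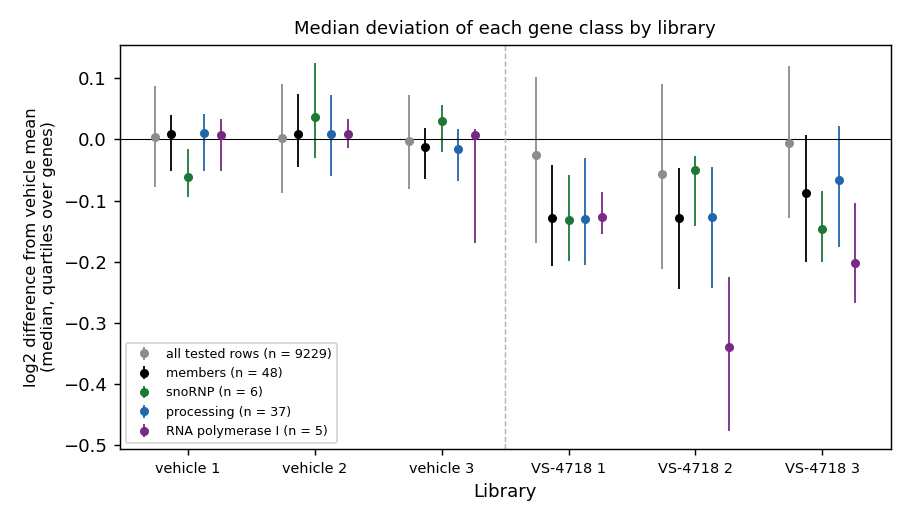
Median log2 difference of each gene class from the mean of the vehicle libraries (vertical axis), for each of the 6 libraries (horizontal axis). Points are medians over genes and bars run between the quartiles; the members' medians sit near 0 in vehicle and at -0.13, -0.13 and -0.09 in the treated libraries.

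Summed over the 51 rows, the members took 4126, 4142 and 4008 linear TPM-like units in vehicle replicates 1 to 3. With VS-4718 they took 3762, 3762 and 3852. The treated sums all lay below the vehicle sums. The sum is weighted towards abundant genes, of which NCL was the highest.

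**Figure D2:**
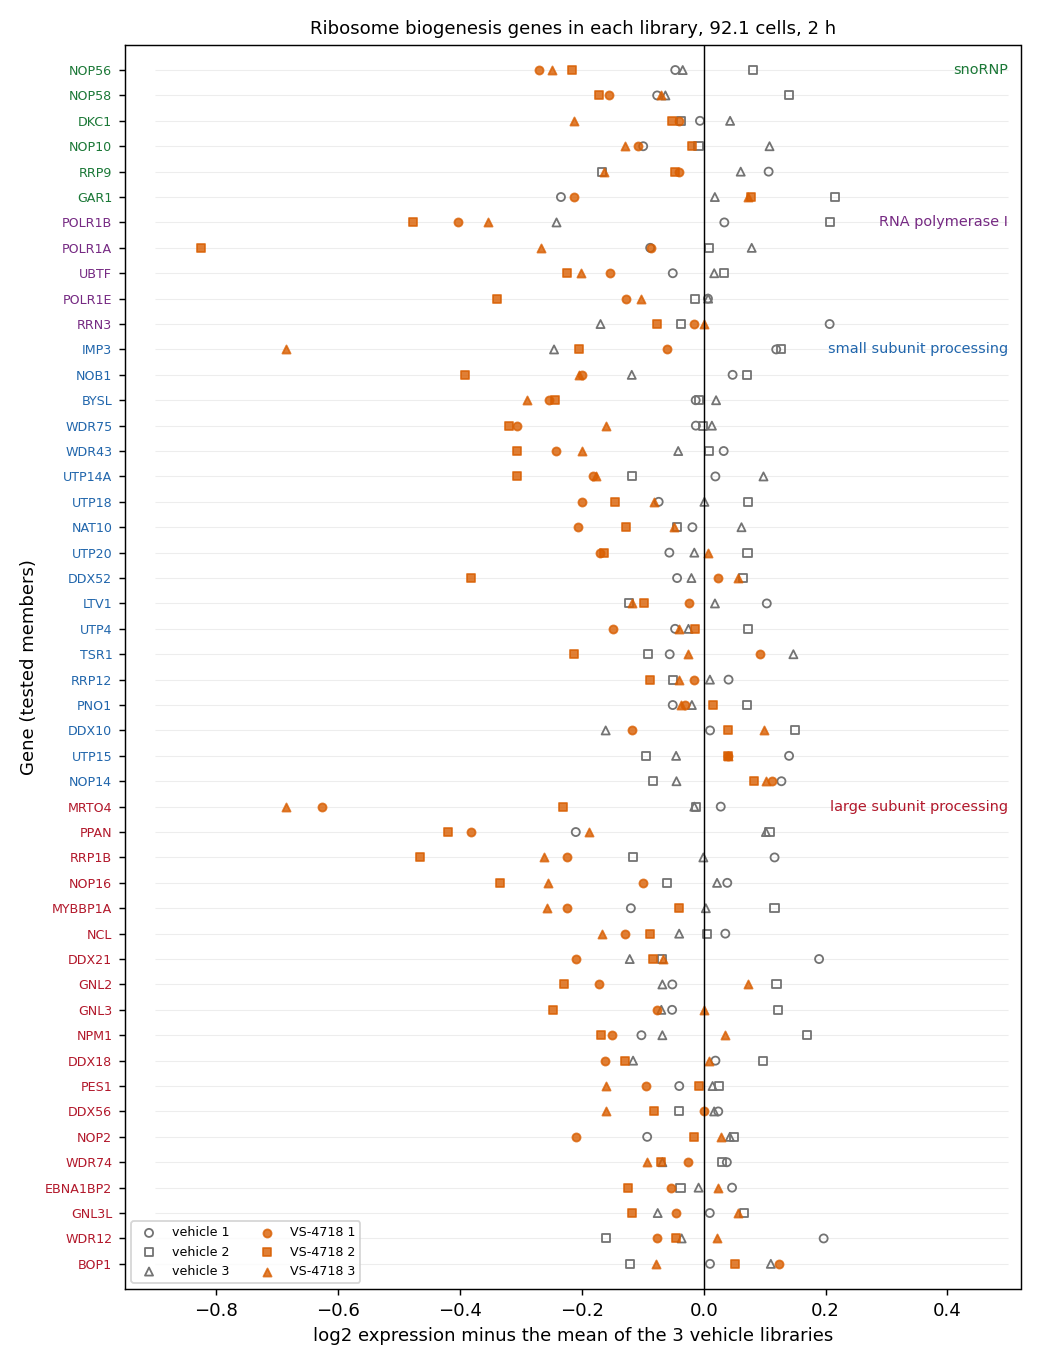
Each tested member (vertical axis, coloured by class) in each library, as log2 expression minus the gene's vehicle mean (horizontal axis); grey open symbols are vehicle and orange filled symbols VS-4718 libraries. In 16 of the 48 genes the orange symbols all lie to the left of the grey ones, and in no gene do they all lie to the right.

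The snoRNP proteins had 6 of 6 tested members lower, with a median of -0.09 log2 units. Box C/D particles carry the methyltransferase fibrillarin on a scaffold of NOP56 and NOP58, and box H/ACA particles carry the pseudouridine synthase DKC1 with GAR1, NHP2 and NOP10. NOP56 stood at 7.28, 7.41 and 7.30 in vehicle replicates 1 to 3 and at 7.06, 7.11 and 7.08 with VS-4718. All of its treated values were below all vehicle values; the treated mean was 84.4% of vehicle (log2 difference -0.24, SE 0.05; limma adjusted p = 0.25). Its unadjusted p stayed under 0.05 in all 14 alternative settings. NOP58, its partner in the scaffold, stood at 7.78, 7.99 and 7.79 against 7.70, 7.68 and 7.78. Treated replicate 3 and vehicle replicate 1 were level, so the groups overlapped (-0.13, SE 0.07; adjusted p = 0.59). Without vehicle replicate 2, the highest of the 6, the difference was -0.062.

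DKC1 stood at 7.10, 7.07 and 7.15 in vehicle and at 7.07, 7.06 and 6.90 with VS-4718. The groups just missed each other, and only treated replicate 3 was clearly lower (-0.10, SE 0.06; adjusted p = 0.64; -0.047 without that library). NOP10, the smallest H/ACA core protein, stood at 6.72, 6.81 and 6.93 against 6.71, 6.80 and 6.69, with overlapping groups (-0.09, SE 0.07; -0.032 without vehicle replicate 3). GAR1 had means of 5.22 and 5.20 and varied by 0.23 (SD) among the vehicle libraries alone. RRP9, a protein of the U3 particle that guides the first cuts of the precursor, had means of 5.22 and 5.13. NHP2 was listed at -1.76 ± 0.34 (SD, n = 3) in vehicle and -1.61 ± 0.50 with VS-4718, too low to be tested, while its tested partners in the particle had means above 5.

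Several members carry snoRNA genes inside their own genes, which makes them hosts of the guide RNAs as well as sources of the proteins. In the GENCODE 29 annotation (GRCh38), 9 of the 58 members held 28 snoRNA or scaRNA genes within their bounds on the same strand. NOP56 held 5, NOP58 held 4, NCL and WDR43 held 3 each, and GNL3 held 6, some of them overlapping predictions. SNORD57 lies inside NOP56 on chromosome 20 and SNORD53 inside WDR43 on chromosome 2. Both are printed as DNA because they show the sequence signals of box C/D snoRNAs. Capitals mark the C box (TGATGA) and the D box (CTGA).
SNORD57, chr20:2656939-2657010, plus strand: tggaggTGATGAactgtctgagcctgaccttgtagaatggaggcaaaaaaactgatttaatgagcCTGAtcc
SNORD53, chr2:28927067-28927144, plus strand: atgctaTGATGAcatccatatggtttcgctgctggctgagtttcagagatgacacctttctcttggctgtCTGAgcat
The snoRNAs themselves were not analysed here; the values are those of the host genes' rows. All 8 tested hosts had lower means, with a median of -0.13, and 4 of them (NOP56, NCL, WDR43 and PPAN) had an unadjusted p under 0.05, against 58.2% of all rows with a lower mean and 6.74% lower at that p. Of the 40 other tested members, 36 had lower means, with a median of -0.09, and 7 had such a p. The 2 sets were not compared by a test.

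The RNA polymerase I members had the lowest median of the 3 classes, -0.19 log2 units, with 5 of 5 tested genes lower; the differences between classes were not tested. UBTF, which bends and opens the ribosomal DNA for the polymerase, stood at 5.67, 5.75 and 5.74 in vehicle and at 5.57, 5.50 and 5.52 with VS-4718. The groups did not overlap and the spread within each was 0.04 (SD); the treated mean was 87.4% of vehicle (-0.19, SE 0.06; adjusted p = 0.39). POLR1B, a catalytic subunit, stood at 3.26, 3.43 and 2.98 against 2.82, 2.74 and 2.87. Its treated values were close together and below the lowest vehicle value (-0.41, SE 0.14; adjusted p = 0.42). POLR1A, the other catalytic subunit, stood at 4.18, 4.28 and 4.35 against 4.18, 3.44 and 4.0. Treated replicate 2 stood far below the rest: the log2 difference of -0.39 (SE 0.19) became -0.18 without it.

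POLR1E, an accessory subunit that helps the polymerase at initiation, stood at 4.07, 4.05 and 4.07 against 3.93, 3.72 and 3.96. The groups did not overlap, with the wider spread among the treated libraries (-0.19, SE 0.09; adjusted p = 0.57; -0.12 without treated replicate 2). RRN3, the factor that makes the polymerase competent to start and a known target of growth signalling at the protein level, stood at 2.40, 2.16 and 2.02 against 2.18, 2.12 and 2.19. Its treated values lay within the vehicle range (-0.03, SE 0.14), and the sign turned with median scaling and without vehicle replicate 1. Of other genes of this machinery, listed by role, 9 of 15 had a row and 7 were tested; 6 were lower, with a median of -0.07. POLR1F, an initiation subunit found under its older name TWISTNB, stood at 6.21, 6.18 and 5.93 against 5.70, 5.63 and 5.85, without overlap (-0.38, SE 0.10; adjusted p = 0.34). POLR1D, shared with RNA polymerase III, had a difference of -0.08 (SE 0.07).

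**Figure D3:**
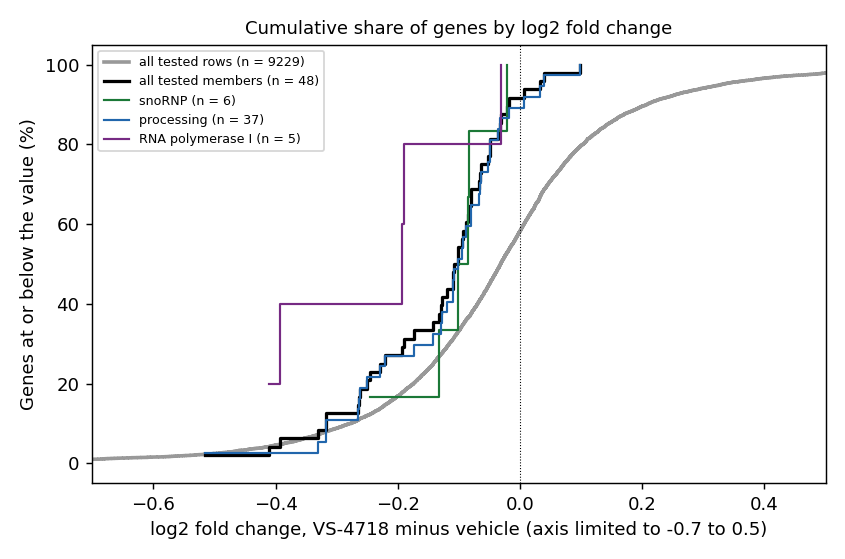
Share of genes (vertical axis, %) at or below each log2 fold change (horizontal axis), for all tested rows, the tested members and the members by class. At a fold change of 0 the members' curve has reached 91.7% and that of all rows 58.2%; the members' curve ends at 0.10.

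Small-subunit processing factors had 15 of 18 tested members lower, with a median of -0.11, and in 7 of the 18 the groups did not overlap, all lower (38.9%, against 11.2% of all rows). The earliest of them bind the growing precursor as the t-UTP complex, to which WDR43, WDR75, UTP4, UTP15 and HEATR1 belong. WDR43 stood at 5.42, 5.40 and 5.35 in vehicle and at 5.15, 5.08 and 5.19 with VS-4718. The gap between the groups was larger than the spread within either, and the treated mean was 84.1% of vehicle (-0.25, SE 0.06; adjusted p = 0.34). WDR75 stood at 4.20, 4.22 and 4.23 against 3.91, 3.90 and 4.06. The vehicle libraries were almost identical and all treated ones lower (-0.26, SE 0.08; adjusted p = 0.39). The other t-UTP members had smaller differences: UTP4 had means of 5.14 and 5.07, UTP15 of 2.58 and 2.62, and HEATR1, which was not tested, of 0.09 and 0.07.

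Among factors that finish the small subunit, BYSL, which stays with the particle until late, stood at 2.73, 2.74 and 2.76 against 2.49, 2.50 and 2.45. Its groups were tight and apart (-0.26), but limma draws its SE of 0.10 partly from other genes of that low level, and the adjusted p was 0.48. NOB1, the nuclease that makes the final cut of 18S rRNA, stood at 3.11, 3.13 and 2.94 against 2.86, 2.67 and 2.85, without overlap (-0.27, SE 0.11; adjusted p = 0.52). PNO1, the partner of NOB1, had means of 4.71 and 4.69, which differed by less than the spread between replicates. UTP14A, which helps to release the U3 particle, UTP18, of the UTP-B complex, and NAT10, which acetylates cytidines of 18S rRNA, were the other members without overlap. Their differences were -0.22 (SE 0.11), -0.14 (SE 0.07) and -0.13 (SE 0.07).

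NOP14, a core factor of the small-subunit processome, had the most positive difference of any tested member. It stood at 6.73, 6.52 and 6.55 in vehicle and at 6.71, 6.68 and 6.70 with VS-4718. Vehicle replicate 1 was the highest of all 6 values, so the groups overlapped (0.10, SE 0.07; adjusted p = 0.67); without it the difference was 0.16 and NOP14 was the 1 member higher at an unadjusted p under 0.05. DDX10 and UTP15 had differences of 0.01 (SE 0.13) and 0.04 (SE 0.11). For IMP3, a protein of the U3 particle, the difference was -0.32 with an SE of 0.21, and treated replicate 3 was the lowest at 1.53; without it the difference was -0.13. The remaining members, UTP20, DDX52, RRP12, LTV1 and TSR1, had differences between -0.11 (UTP20) and -0.05 (RRP12 and TSR1), each with overlapping groups.

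Large-subunit factors, with the abundant nucleolar proteins NCL, NPM1, DDX21 and MYBBP1A counted among them, had 18 of 19 tested members lower and a median of -0.09. In 4 of the 19 the groups did not overlap, all lower (21.1%, against 11.2% of all rows). MRTO4, which holds the place of the ribosomal stalk protein until late in assembly, stood at 4.01, 3.97 and 3.97 in vehicle. With VS-4718 it stood at 3.35, 3.75 and 3.29, so every treated library was lower, with replicate 2 nearest to vehicle. Its difference, -0.51 (SE 0.13; adjusted p = 0.34), was the most negative of the tested members and left 70.0% of the vehicle level. The table also has a row named MRTO4-PS1, in the form of a mouse pseudogene name, with a higher level than MRTO4 itself. That row stood at 5.64, 5.50 and 5.40 in vehicle and 5.32, 5.44 and 5.46 with VS-4718, with overlapping groups (-0.11, SE 0.08). Reads may be split between both rows, so the value of MRTO4 is uncertain.

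RRP1B, a nucleolar protein of pre-60S particles, stood at 4.67, 4.44 and 4.56 against 4.33, 4.09 and 4.29, without overlap (-0.32, SE 0.10; adjusted p = 0.40). NOP16 stood at 5.86, 5.76 and 5.84 against 5.72, 5.48 and 5.56, again without overlap (-0.23, SE 0.08; adjusted p = 0.44). PPAN, an early pre-60S factor, stood at 4.77, 5.09 and 5.08 against 4.60, 4.56 and 4.79; vehicle replicate 1 lay below treated replicate 3, and the difference was -0.33 (SE 0.12; adjusted p = 0.44). The PeBoW complex of PES1, BOP1 and WDR12, which acts on the 5.8S and 28S part of the precursor, had overlapping groups. PES1 had means of 6.53 and 6.44, and WDR12 of 8.67 and 8.63. BOP1 stood at 4.12, 3.99 and 4.22 against 4.24, 4.16 and 4.03, with a difference of 0.03 (SE 0.10) whose sign turned without vehicle replicate 2 or VS-4718 replicate 1.

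The GTPases of the late nucleolar and export steps, GNL2, GNL3 and GNL3L, had differences of -0.11, -0.11 and -0.04, with overlapping groups. The helicases DDX18 and DDX56 had -0.09 and -0.08. For NOP2, which methylates 28S rRNA, and for WDR74 and EBNA1BP2 the differences were -0.07, -0.06 and -0.05. RRS1 was listed at -3.24 ± 0.58 (SD, n = 3) in vehicle and -3.56 ± 1.02 with VS-4718, too low to be tested.

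NCL, which encodes nucleolin, the abundant RNA-binding protein of the nucleolus, stood at 10.03, 10.00 and 9.95 in vehicle and at 9.86, 9.90 and 9.82 with VS-4718. The groups did not overlap; the treated mean was 91.5% of vehicle (-0.13, SE 0.04; adjusted p = 0.36). It had the highest level of all members, and the difference was small but larger than the spread of 0.04 (SD) in each group. NPM1, which encodes nucleophosmin, a histone and ribosome chaperone, stood at 8.33, 8.60 and 8.36 against 8.28, 8.26 and 8.46. Its groups overlapped (-0.09, SE 0.09; adjusted p = 0.76), and without vehicle replicate 2, the highest value, the difference was -0.0099. Its row is uncertain because GENCODE 29 names 45 pseudogenes after it, of 71 named after 13 members. MYBBP1A and the helicase DDX21 had differences of -0.17 (SE 0.09) and -0.12 (SE 0.10).

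**Figure D4:**
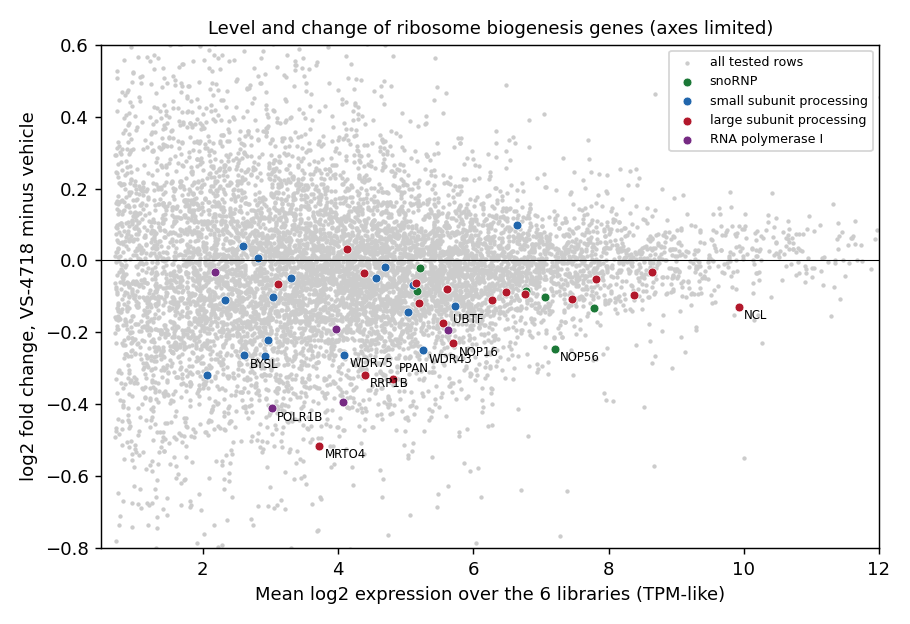
Log2 fold change (vertical axis, limited to -0.8 to 0.6) against the mean log2 level over the 6 libraries (horizontal axis), with all tested rows in grey and the members coloured by class; the 11 members with an unadjusted limma p under 0.05 are named. Members span mean levels of 2.05 to 9.93 and lie mostly below the line at 0.

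The members lay higher than most rows, with a median level of 5.13 against 3.99 for all tested rows. Restricting the test to the upper 6153 rows left 39 members, of which 37 had a lower mean, against 59.0% of those rows. Among rows with a human name only, 44 of 48 members were lower, against 59.7% of rows. NOP56, WDR43, UBTF and MRTO4 had an unadjusted p under 0.05 in all 14 alternatives. WDR75 did so in 13 of 14, NCL and RRP1B in 12 of 14, PPAN and NOP16 in 10 of 14, POLR1B in 10 of 13 and BYSL in 5 of 13. For these 11 members no single library, when left out, moved the difference by over 1.5 times. For 33 of the 48 tested members at least 1 library did. The 11 were picked by p in the same libraries, so their stability is no independent support. Differences near 0 move by that factor easily. The sign turned in at least 1 setting for 11 members, NOP2, GAR1, BOP1, WDR12, UTP15, GNL3L, DDX10, DDX52, RRN3, TSR1 and PNO1. Of these, 8 had a lower mean in the main test, and all had overlapping groups. Where groups do not overlap, leaving out a library cannot turn the sign, so the overlap was largely fixed in advance.

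Promoters of members from each class are shown because the genes tended to the same side and because their sequences can be set against the factors known to drive this pathway. Each is the 250 bases before the RefSeq start site (GRCh38.p14), 5′ to 3′ on the gene's strand. Capitals mark 3 motifs in either direction: the E-box CACGTG that MYC and MAX bind, the CCAAT box (CCAAT, or ATTGG on the other strand) and the ETS core CCGGAAG (or CTTCCGG).
NOP56, chr20:2652382-2652631, plus strand: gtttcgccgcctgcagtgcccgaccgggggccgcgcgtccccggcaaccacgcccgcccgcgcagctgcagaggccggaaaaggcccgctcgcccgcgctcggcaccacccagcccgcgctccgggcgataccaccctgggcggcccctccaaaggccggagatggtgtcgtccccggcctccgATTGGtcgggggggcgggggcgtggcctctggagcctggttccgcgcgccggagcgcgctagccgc
NCL, chr2:231464485-231464734, minus strand: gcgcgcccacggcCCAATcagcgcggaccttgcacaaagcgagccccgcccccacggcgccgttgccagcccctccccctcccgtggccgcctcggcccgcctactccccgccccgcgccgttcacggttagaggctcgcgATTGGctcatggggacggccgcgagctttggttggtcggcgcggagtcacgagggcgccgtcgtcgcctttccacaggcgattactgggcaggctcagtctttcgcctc
POLR1B, chr2:112542215-112542464, plus strand: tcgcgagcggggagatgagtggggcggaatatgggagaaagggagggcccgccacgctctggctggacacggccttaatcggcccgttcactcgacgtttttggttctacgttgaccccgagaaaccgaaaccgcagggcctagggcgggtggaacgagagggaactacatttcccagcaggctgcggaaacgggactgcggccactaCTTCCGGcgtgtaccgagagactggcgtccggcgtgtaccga
UTP14A, chrX:129905914-129906163, plus strand: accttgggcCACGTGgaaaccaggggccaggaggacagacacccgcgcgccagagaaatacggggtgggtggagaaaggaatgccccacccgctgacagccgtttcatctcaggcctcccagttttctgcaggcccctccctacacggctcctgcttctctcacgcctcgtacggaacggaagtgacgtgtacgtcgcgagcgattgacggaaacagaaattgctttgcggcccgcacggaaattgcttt
Sequences were found for 49 of the 58 members; RRP1B, POLR1E, BOP1, DDX18, RRS1, RRP12, NOLC1, DDX52 and NOP58 had none. The E-box was in the window of 9 members (18.4%), against 7.73% of the 27305 genes with a promoter in that table. The ETS core was in 19 (38.8%, against 10.2%), the CCAAT box in 21 (42.9%, against 37.0%) and the TATA box TATAAA in 2 (4.08%, against 13%). The 27305 genes include ones without a row here and were not matched to the members by level. Whether the shares are particular to the members was therefore not tested. Both strands were searched, a motif may share letters with its own reverse or with another motif, and a gene counts once when any of its listed starts holds the motif. Of the 10 members with a sequence and an unadjusted p under 0.05, 0 held the E-box, 3 the ETS core and 4 the CCAAT box. A match describes letters in the window and not a bound site.

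Other ribosome biogenesis genes, listed by role and not counted among the members, also had lower means more often than not. Of 138 listed, 108 had a row and 99 were tested; 66 were lower (66.7%, against 58.2% of all rows), 0 passed limma over all rows, 14 were lower at an unadjusted p under 0.05 (14.1%, against 6.74% of all rows) and 2 were higher (against 3.02%). For the small subunit 23 of 32 were lower, with a median of -0.12; NGDN stood at 5.97, 6.07 and 5.79 against 5.62, 5.56 and 5.49 (-0.39, SE 0.09; adjusted p = 0.26). The helicase gene DDX47 had a difference of -0.21 (SE 0.07) without overlap. Large-subunit genes had 23 of 34 lower, with a median of -0.10. BRIX1, an early pre-60S factor, stood at 8.11, 8.43 and 8.23 against 7.80, 7.86 and 7.93 (-0.39, SE 0.09; adjusted p = 0.25), and MAK16 had a difference of -0.38 (SE 0.09; adjusted p = 0.27). Both were without overlap and lower by more than any snoRNP member. They were picked by smallest p from the 34 tested genes, so this does not rank the lists.

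Of the factors that assemble snoRNPs, 3 of 8 tested were lower and 5 higher, with a median of 0.02 whose sign turned with quality weights and without 4 of the 6 libraries in turn. NAF1, which escorts H/ACA proteins, had a difference of -0.33 (SE 0.18) in which treated replicates 1 and 2 were low and replicate 3 lay within the vehicle range (-0.52 without it). RUVBL1, an ATPase of the assembly complex, had one of 0.05 (SE 0.06). The difference from the snoRNP proteins was not tested.

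**Figure D5:**
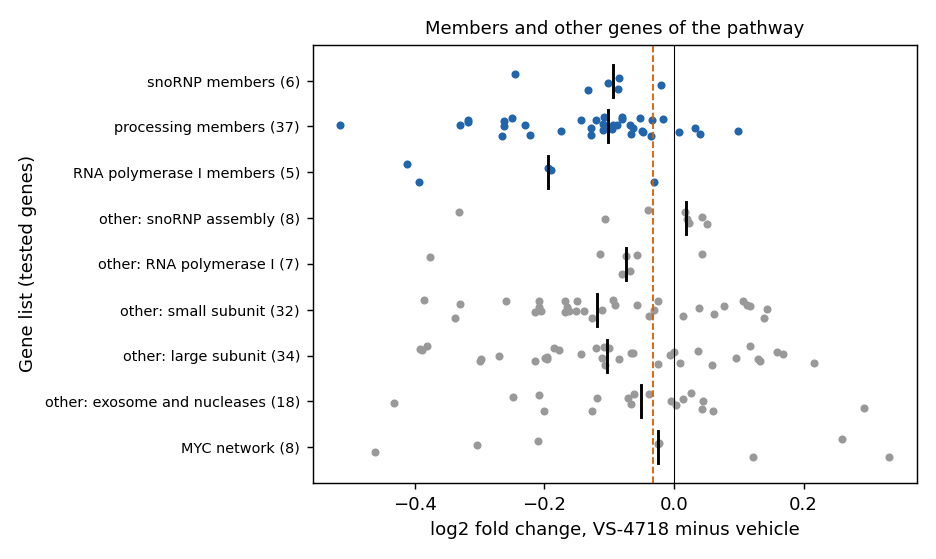
Log2 fold change (horizontal axis) of each tested gene in the member classes (blue) and in other lists of the pathway (grey), with the number of genes in brackets; black bars are medians and the dashed orange line is the median of all tested rows, -0.03. The member classes have medians of -0.09, -0.10 and -0.19, and the snoRNP assembly list one of 0.02.

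MYC, the transcription factor best known for driving this pathway, had close values in both groups. It stood at 6.997, 6.897 and 6.905 in vehicle and at 6.905, 6.918 and 6.903 with VS-4718 (-0.02, SE 0.05; limma adjusted p = 0.89), and the sign turned with median scaling and without vehicle replicate 1. The treated values lay within the vehicle range. MAX, its partner in DNA binding, stood at 6.10, 6.81 and 6.42 against 6.09, 5.96 and 5.90. The groups were apart by the narrowest margin, vehicle replicate 1 lying just above treated replicate 1 (-0.46, SE 0.17; adjusted p = 0.47; -0.28 without vehicle replicate 2). MLX, of the related MLX network, had a difference of -0.30 (SE 0.08; adjusted p = 0.33). In the whole list, 5 of 8 tested genes were lower (62.5%, against 58.2% of all rows) and 3 higher, with a median of -0.02. In 3 genes all treated values lay below all vehicle values, and in 1 they lay above. Over all rows the shares were 11.2% and 5.15%. In this list 0 genes passed limma over all rows.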

How the data were processed

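RNA of 6 libraries (3 vehicle, 3 VS-4718) was sequenced, and each library's reads were matched with kallisto against GRCh38, per the submitters' processing notes; version, index and filters: not given in the sources used here. As deposited, the authors' table consists of log2 values with a row per symbol, and the values point to log2 of a measure resembling TPM. Members were matched by symbol; members, roles and lists were chosen with earlier results of these data known. Values of every library were given for a preset list of core genes, up to 4 members per class by smallest p, the most positive member per class, up to 2 genes per other list, MYC and MAX; PPAN, UTP14A, UTP18, NAT10, IMP3, NOP53 and BUD23 were named after their values were seen.

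Rows with a mean above the lowest 25% (over 0.70) were kept, 9229 in all. The test was limma 3.58.1 in R 4.3.3, with a mean-variance trend, group as the only term, two-sided p-values and Benjamini-Hochberg adjustment over all tested rows. A permutation of 3 against 3 libraries cannot go below an exact p of 0.1. Alternative settings left out each library in turn or used a replicate block, median scaling, no filter, a filter at 50%, a pseudocount of 1, no trend, quality weights and human names only. Scripts were tested on simulated data. Coordinates are from GENCODE 29 (GRCh38) and promoters from RefSeq (GRCh38.p14).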

Additional observations from a re-analysis of the deposited data

How the results depend on the processing

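No member passed limma over all rows under any of the 14 alternatives. The number of rows called in the whole table was 12; it was 0 with the replicate block, 0 without the trend, and between 0 and 7 when a library was left out. A block or a missing library lowers the degrees of freedom; the cause in the fit without the trend was not tested. Members lower at an unadjusted p under 0.05 numbered between 7 and 10 with a library left out, 10 with the replicate block and 9 with median scaling. Over rows, the residuals of libraries sharing a number correlated at 0.13, 0.05 and 0.03. For VS-4718 replicates 1 and 2 the best match had the same number, and for replicate 3 it was vehicle replicate 2 (0.05). These values cannot settle whether the libraries were paired. The main test used no pairs, and the replicate block was kept as an alternative. The members' median was -0.071 with median scaling and between -0.14 and -0.10 with a library left out; that of the processing members was -0.067 and between -0.13 and -0.082. The snoRNP and RNA polymerase I medians stayed negative in all 14.

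Signs near 0 reversed. Over the 48 tested members, 11 turned sign in at least 1 alternative, 0 of them with an unadjusted p under 0.05 or without overlap. Leaving out a library cannot turn the sign where groups do not overlap, so the 0 without overlap was largely fixed in advance. Median scaling gave 0.0030 for RRN3, 0.0093 for MYC, 0.028 for EIF4A1 and 0.0100 for the median of the MYC network. Quality weights gave 0.0032 for EIF4A1 and -0.0027 for the snoRNP assembly median. With a library left out the ranges were -0.028 to 0.087 for BOP1, -0.12 to 0.073 for RRN3, -0.038 to 0.040 for EIF4A1, -0.042 to 0.0074 for MYC, -0.051 to 0.012 for the MYC network and -0.047 to 0.031 for snoRNP assembly. The causes were not tested. Of 486 values of the 35 tested genes picked by the naming rule, over the alternatives, 476 had the sign and the call of the main test, and 10 had the opposite sign; these genes had 0 calls to lose. The depth of the libraries is unknown. The results added after seeing the data were the count at an unadjusted p, the count of genes without overlap (16; 12 under median scaling, against 8.1% of all rows, and 19 to 24 with a library left out, against 15.1% to 21.1%, where fewer values have to be apart) and the medians of the other lists.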

Other observations

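Genes that cut and trim the ribosomal precursor were listed separately. Of 26 exosome and nuclease genes, 18 had a row and were tested. Of the 18, 11 had lower means with VS-4718 (61.1%, close to the 58.2% of all tested rows). The median log2 difference over the 18 was -0.05, against -0.03 over all tested rows. In 5 the groups did not overlap, all lower (27.8%, against 11.2% of all tested rows). EXOSC3, a cap subunit of the RNA exosome, stood at 7.75, 7.78 and 7.75 in vehicle and at 7.51, 7.45 and 7.70 with VS-4718. Treated replicate 3 was close to the vehicle values (-0.21, SE 0.07; limma adjusted p = 0.42). EXOSC9, a ring subunit, stood at 6.01, 6.21 and 6.10 against 5.99, 5.78 and 5.80 (-0.25, SE 0.08; adjusted p = 0.43). Of 17 genes known to host snoRNAs, 3 had a row and 2 were tested: EIF4A1 differed by -0.01 (SE 0.04) and EIF4A2 by -0.18 (SE 0.09; -0.091 without vehicle replicate 2).

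In 22 of the 99 tested genes of the other pathway lists, all treated values lay below all vehicle values (22.2%, against 11.2% of all tested rows). In 2 of the 99 the groups were apart in the opposite direction. NOP53, a nucleolar adaptor that brings the exosome to pre-60S particles, stood at 5.44, 5.52 and 5.60 in vehicle and at 5.77, 5.81 and 5.63 with VS-4718 (0.22, SE 0.08; limma adjusted p = 0.46). BUD23, which methylates 18S rRNA, stood at 7.26, 7.27 and 7.34 against 7.45, 7.43 and 7.36 (0.12, SE 0.05; adjusted p = 0.51). Neither passed over all rows, and 5.15% of all tested rows had treated values above all vehicle values.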
